A study of Mus musculus with 98 samples.

Results

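The 10 genes described here encode the common gamma chain of the interleukin receptors (Il2rg), 5 partner chains (Il7r, Il2ra, Il2rb, Il4ra and Il21r), the kinases Jak1 and Jak3 and the transcription factors Stat5a and Stat5b. They were chosen by name, and all 10 are among the 23420 gene symbols measured in single innate lymphoid cells (ILCs) from mouse intestine. R9-ILCs were derived from pluripotent stem cells and transplanted into mice lacking both Rag2 and Il2rg (Rag2-/-Il2rg-/-). At 3 weeks after transplantation, cells positive for CD45.2, GFP and CD127 and negative for lineage markers were sorted from the recipients' intestine. WT-ILCs passed the same gate without GFP and came from C57BL/6 mice of the CD45.2 strain that were 8 weeks old. R9 cells also carry the strain label C57BL/6, and neither the donor line's genotype nor the number of recipients is given in the sources used here. The R9 titles fall into 32 cells without a numeric ending and 35 cells with the ending 1, a division whose meaning the labels do not state. Both series are given apart, except where a value is for R9 or all R9 cells without a series named. The 31 WT columns were reduced to 22 cells by averaging columns that resembled each other.

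ILCs are lymphocytes without rearranged antigen receptors, and those of the gut depend on interleukin 7 (IL-7) for development and survival. The common gamma chain pairs with a private chain for each cytokine of the family. Jak1 binds the private chain, Jak3 binds the common chain, and together they phosphorylate STAT5, which then enters the nucleus and binds DNA at the palindrome TTCNNNGAA. CD127, the protein made from Il7r, was part of the sort gate. The sorted cells were selected for that protein, so detection of its transcript in them is not an independent result. The part of the gate in the transcript level was not tested. The recipients lack Il2rg, and gene-level values do not show which exons were covered, so a host transcript outside the deleted part could not be recognized.

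The members and all genes of the pathway lists, 16 of which are STAT5 and IL-7 targets, were searched for that palindrome, since it is the sequence through which STAT5 reaches a gene. Among 32851 RefSeq promoters (GRCm38.p6, windows of 300 bases that end shortly after each start), TTCNNNGAA occurred in 8.30%, and at 2 or more positions in 0.457%. It reads the same on both strands. Of the 10 members, 9 matched the promoter table and 1 held the palindrome (Il7r). Of 65 genes on the pathway lists described below, 52 matched and 5 held it: Cish and Lta at 2 positions each, and Il4, Socs3 and Akt2 at 1. A gene counted if any of its windows held it, with 11 windows for the 9 members and 72 for the 52 pathway genes. The 8.30% counts windows and not genes, so it is not on the same scale. The 3 promoters printed here, 5′ to 3′ with each palindrome in capitals, were chosen after these counts and the expression values had been seen. Cish and Lta are shown for their paired palindromes, and Il7r as the single member with a match.
Cish promoter, chr9:107296409-107296708, plus strand: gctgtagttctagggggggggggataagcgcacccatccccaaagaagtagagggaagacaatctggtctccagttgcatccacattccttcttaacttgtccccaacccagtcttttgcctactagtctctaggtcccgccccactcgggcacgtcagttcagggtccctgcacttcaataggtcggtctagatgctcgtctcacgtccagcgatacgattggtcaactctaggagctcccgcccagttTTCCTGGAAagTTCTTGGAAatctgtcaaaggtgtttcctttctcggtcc
Lta promoter, chr17:35205302-35205601, minus strand: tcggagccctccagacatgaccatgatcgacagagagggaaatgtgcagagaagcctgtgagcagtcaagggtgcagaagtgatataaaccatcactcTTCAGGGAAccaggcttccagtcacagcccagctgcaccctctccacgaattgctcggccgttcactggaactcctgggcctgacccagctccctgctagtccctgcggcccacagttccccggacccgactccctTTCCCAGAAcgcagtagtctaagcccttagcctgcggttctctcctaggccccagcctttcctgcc
Il7r promoter, chr15:9529827-9530126, minus strand: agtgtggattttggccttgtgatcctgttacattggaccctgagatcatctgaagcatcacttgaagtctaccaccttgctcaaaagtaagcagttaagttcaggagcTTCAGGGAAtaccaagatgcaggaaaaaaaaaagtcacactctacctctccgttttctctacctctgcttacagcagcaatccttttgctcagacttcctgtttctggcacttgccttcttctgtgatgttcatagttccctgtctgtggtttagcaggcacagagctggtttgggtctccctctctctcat
In Cish the palindromes begin at 0 and 11 bases from the annotated start, in Lta at -152 and -16, and in Il7r at -142. A match describes these letters and is no measurement of binding.

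All values are TPM, transcript abundances scaled per transcript length and to the same total in each cell. They allow comparison between genes but keep no read depth. A median of 2082.5, 2429 and 2092.5 genes reached 1 TPM in R9 without ending, R9 ending 1 and WT cells. At 10 TPM the medians were 1933.5, 1594 and 1490.5 genes, the most in R9 without ending. Values below 2 TPM made up a median of 0.275%, 39.7% and 22.3% of the values above 0, so a limit of 1 TPM does not mean the same in the 3 sets, and shares at 10 TPM are given beside it. The single highest gene held a median of 18.0%, 2.04% and 4.99% of a cell's TPM. The 9 ILC markers, with the members Il7r and Il2rg left out of the sum, summed to medians of 2497, 5544 and 1374 TPM. Of them, Id2 was at 10 TPM or more in all cells of the 3 sets, Thy1 at 1 TPM in 15.6%, 71.4% and 31.8%, and Gata3 in 68.8%, 28.6% and 22.7%. Zbtb16 was listed at 0 in WT. Mast cell and basophil markers summed to a median of 1349 TPM (61.1 to 4659) in R9 without ending, where 6 of 9 had a mean of 1 TPM or more and Mcpt1, Mcpt2 and Ms4a2 were listed at 0. The sum ranged from 0 to 616 TPM in R9 ending 1 and from 0 to 3.91 TPM in WT. Macrophage and dendritic cell markers summed to medians of 445 (39.99 to 3920.4), 0 (0 to 1874) and 1.49 TPM (0 to 4834), with 6, 2 and 4 of 8 at a mean of 1 TPM or more. Of 6 T cell markers, Cd8a and Cd8b1 were listed at 0 throughout, and the sum reached 201, 6165 and 274 TPM. The T cell marker Cd3g was at 1 TPM in 28.1%, 71.4% and 50% of cells, with means of 34.02, 792 and 13.6 TPM. Epithelial markers summed to medians of 1088, 46.5 and 1556 TPM, with ranges of 0 to 435934, 0.753 to 12443 and 10.2 to 93369 TPM. No animal is named for any cell, so each set counts as 1 sample. No comparison has a replicate check or a p-value, SDs are spreads over cells, and exact Clopper-Pearson 95% intervals cover counting error only.

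Il2rg, whose product is the shared signalling chain, was found in every cell of all 3 sets. The gene lies on chrX:101264378-101268255 (minus strand, GRCm38). R9 cells without ending had a lowest value of 75.7, a median of 1110.2 and a highest value of 4370.3 TPM. In R9 ending 1 these were 19.04, 1803 and 5969 TPM, and in WT 10.1, 544 and 4211 TPM. The 3 ranges overlapped over most of their length, and the WT cells reached as low as the R9 cells. Mean Il2rg was 1404 ± 1149 TPM (SD, n = 32 cells), 2219 ± 1721 TPM (n = 35) and 1391 ± 1591 TPM (n = 22). Ratios below are log2((mean TPM + 1)/(mean TPM + 1)), and a gene counts as called at 1 or more in size. Il2rg was not called, at 0.01 in R9 without ending and 0.67 in R9 ending 1 over WT. The latter was -0.02 after scaling by genes common to most cells. Between the R9 series (without ending over ending 1) the ratio was -0.66, which turned to 0.04 with that scaling and to 0.59 on rescaling without genes that hold 1% or more of a cell's TPM. A ratio over WT sets levels across 2 tables that were normalized separately.

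Il7r, the alpha chain of the IL-7 receptor on chr15:9505788-9530176 (minus strand), divided the R9 series. R9 cells without ending ran from 15.4 TPM through a median of 204 to 1341 TPM. R9 ending 1 ran from 12.9 through 1440.4 to 3327 TPM, and WT from 3.26 through 269.9 to 4869.9 TPM. None of the 32 cells without ending reached the median of ending 1, and 19 of the 35 cells of ending 1 lay above the highest cell without ending. WT cells spanned both, with 5 of 22 above the highest R9 cell without ending. Mean Il7r was 280.3 ± 286 TPM (SD over cells), 1534 ± 942 TPM and 831 ± 1258 TPM in the same order. The ratio of R9 without ending over R9 ending 1 was -2.45, where the median of all 8363 genes was -1.51. It stayed below 0 under each alternative run, between -1.13 and -2.65. Against WT, where the medians of all genes were -0.44 and 0.89, the ratios were -1.57 without ending and 0.88 for ending 1. The latter was -0.42 after scaling by common genes. The former was -0.64 on rescaling without the most abundant genes and -0.30 as a difference of mean log2(TPM + 1) values.

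**Figure D1:**
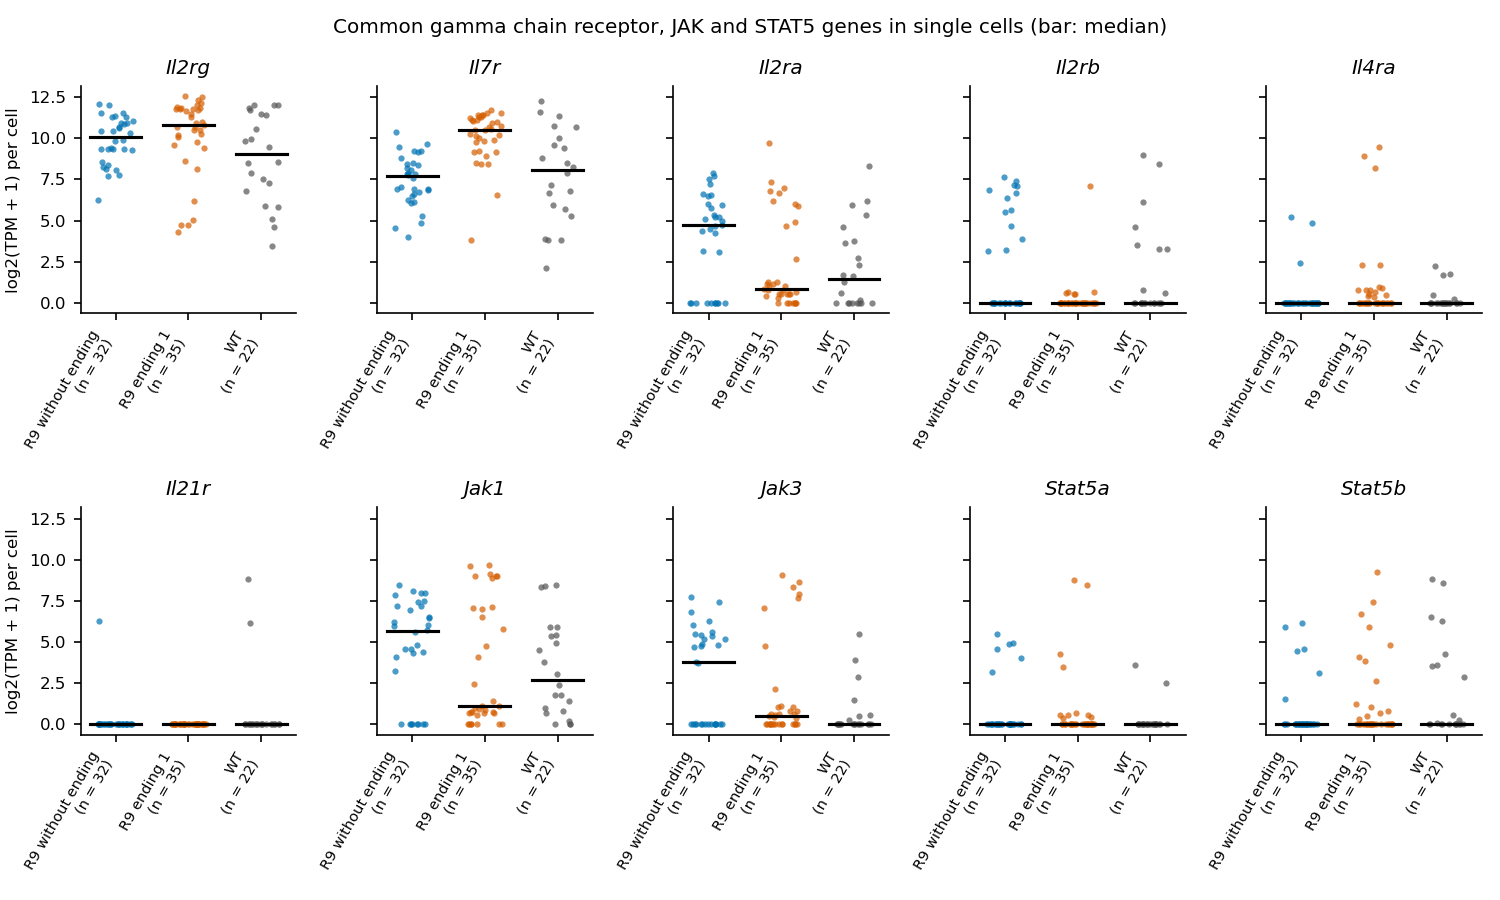
Each point is 1 cell, the vertical axis is log2(TPM + 1), and the black bar is the median of the set. Il2rg and Il7r are above 0 in every cell, with medians of 1110.2, 1803 and 544 TPM for Il2rg in R9 without ending, R9 ending 1 and WT, while the other 8 genes have many cells at or near 0.

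The balance between both chains of the IL-7 receptor also differed between the R9 series. Since TPM is scaled per length, the chains can be set against each other within a cell. Il7r exceeded Il2rg in 0 of 32 R9 cells without ending (0%, 95% interval 0 to 10.9), in 15 of 35 of ending 1 (42.9%, 26.3 to 60.6) and in 3 of 22 WT cells (13.6%, 2.91 to 34.9). The median log2 ratio of Il7r over Il2rg within a cell was -2.27, -0.27 and -1.32. Across cells, Il2rg and Il7r had a Spearman rho of 0.79 in R9 without ending (n = 32), -0.05 in R9 ending 1 (n = 35) and 0.59 in WT (n = 22). These values share the closure of TPM to a fixed total, and whether the cells of a set were prepared together is not given. In R9 without ending, Il2rg also had a rho of 0.91 with the summed mast cell markers and 0.54 with the number of genes at 1 TPM. Their part in the pairing of both chains was not tested.

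**Figure D2:**
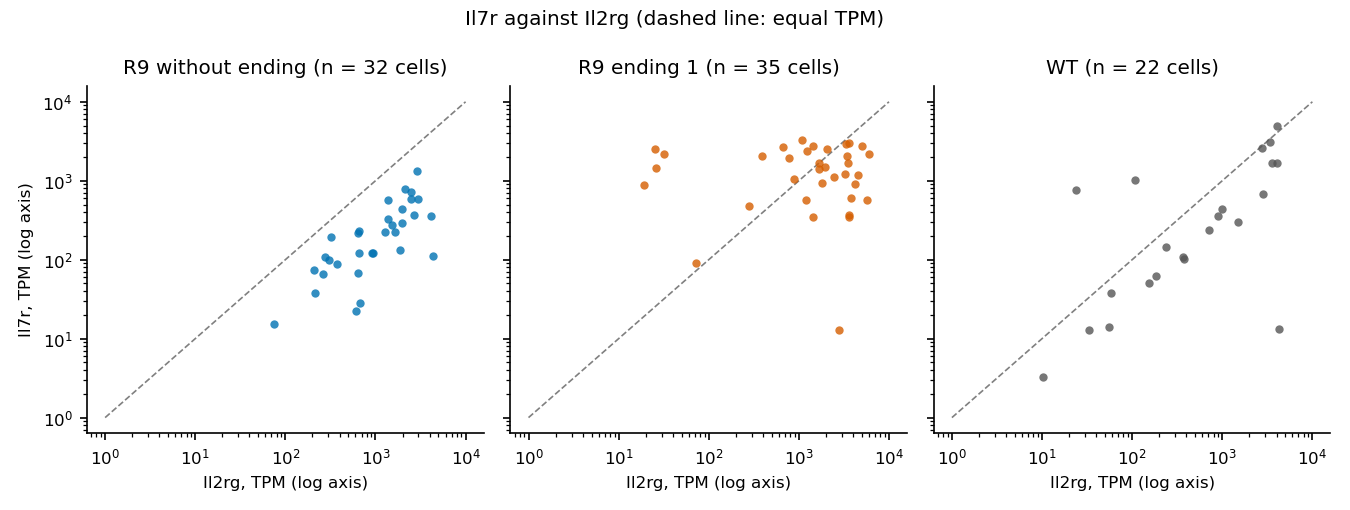
Each point is 1 cell, with Il2rg in TPM on the horizontal and Il7r in TPM on the vertical axis, both log axes; the dashed line marks equal values. All 32 R9 cells without ending lie below the line, and 15 of 35 R9 cells of ending 1 lie above it.

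A few cells had little Il2rg. Below 100 TPM, a limit chosen after seeing the data, lay 1 of 32 R9 cells without ending, 5 of 35 of ending 1 and 5 of 22 WT cells. The 5 R9 cells of ending 1 had a median Il7r of 1440.4 TPM (91.8 to 2491), beside 1452 TPM (12.9 to 3327) in the other 30. The 5 WT cells had a median Il7r of 14.1 TPM beside 353 TPM in the other 17. Their summed epithelial markers had a median of 50252 TPM (10.2 to 93369), beside 1290 TPM (11.7 to 84055) in the other 17. In R9 ending 1 the epithelial medians were 756 TPM (15.6 to 10441) in the 5 low cells and 41.3 TPM (0.753 to 12443) in the other 30. The 1 low R9 cell without ending had 33912 TPM, beside a median of 1043 TPM (0 to 435934) in the rest of its series. Over all 22 WT cells, Il7r and the epithelial sum had a rho of -0.75. The part of epithelial transcripts in the low Il7r values was not tested.

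Il2ra (chr2:11642807-11693193, plus strand) encodes the alpha chain that raises the affinity of the interleukin 2 (IL-2) receptor without signalling itself. R9 cells without ending had a lowest value of 0, a median of 25.1 and a highest value of 238.4 TPM. In R9 ending 1 the values were 0, 0.834 and 851 TPM, and in WT 0, 1.77 and 315 TPM. The sets overlapped, and 1 cell held 52.7% of all Il2ra in R9 ending 1 and 57.1% in WT. At 10 TPM or more, Il2ra was present in 20 of 32 (62.5%, 43.7 to 78.9), 10 of 35 (28.6%, 14.6 to 46.3) and 7 of 22 cells (31.8%, 13.9 to 54.9). Its ratio was not called in any comparison (0.91 and 0.86 over WT, and 0.05 between the R9 series). Without each set's highest cell, the ratio of R9 without ending over WT was 1.80.

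Il2rb (chr15:78479256-78495271, minus strand), the beta chain through which IL-2 and IL-15 signal together with the common chain, was nearly missing from R9 ending 1. R9 cells without ending ran from 0 with a median of 0 to 202 TPM, and 11 of 32 reached 10 TPM (34.4%, 18.6 to 53.2). In R9 ending 1, 1 cell of 35 was at 135 TPM and no other exceeded 0.607 TPM (2.86% at 10 TPM, 0.0723 to 14.9). In WT, 5 of 22 cells reached 10 TPM (22.7%, 7.82 to 45.4), of which 1 at 513 and another at 351 TPM. The intervals of both R9 series did not overlap, which held with the first series higher for 5.58% of the 6237 genes compared and with it lower for 3.09%. Of the 8 members at 10 TPM in at least 10% of either series, 1 was apart, Il2rb. Mean Il2rb was 34.02 ± 58.1, 3.94 ± 22.8 and 44.8 ± 128.7 TPM. The ratio of R9 without ending over ending 1 was 2.83, between 1.66 and 4.78 over all alternatives. Over WT it was -0.39 without ending, which turned to 0.49 on rescaling without the most abundant genes, and -3.21 for ending 1. The ratio of all R9 cells over WT, -1.25, was -0.51 without each group's highest cell.

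Il4ra and Il21r, the private chains for interleukins 4 and 21, were rare. They are neighbours on chromosome 7 (chr7:125552120-125579474 and chr7:125603429-125633570, both on the plus strand), 23954 bases apart. Il4ra was above 0 in 3 of 32 R9 cells without ending, at 36.6, 28.2 and 4.45 TPM. In R9 ending 1, 3 cells stood at 709, 475 and 290.5 TPM and the others at 3.93 TPM or less, and no WT cell exceeded 3.76 TPM. Its mean in R9 ending 1 (42.5 TPM) thus came from 3 of 35 cells, and the ratios of 4.95 over WT and -3.78 between the R9 series rest on them. As differences of mean log2 values they were 0.79 and -0.69. The ratio of R9 without ending over WT, 1.17, was -0.17 after scaling by common genes. Il21r was above 0 in 1 R9 cell without ending (77.0 TPM), in 0 of 35 of ending 1 and in 2 WT cells (448 and 71.4 TPM). A count of 0 among 35 cells allows a share of up to 8.57% by the limit of 3 counts of the total (10% by the exact interval), for counting error only, and a listed 0 can be a failed estimate. No fold is given against the set listed at 0.

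**Figure D3:**
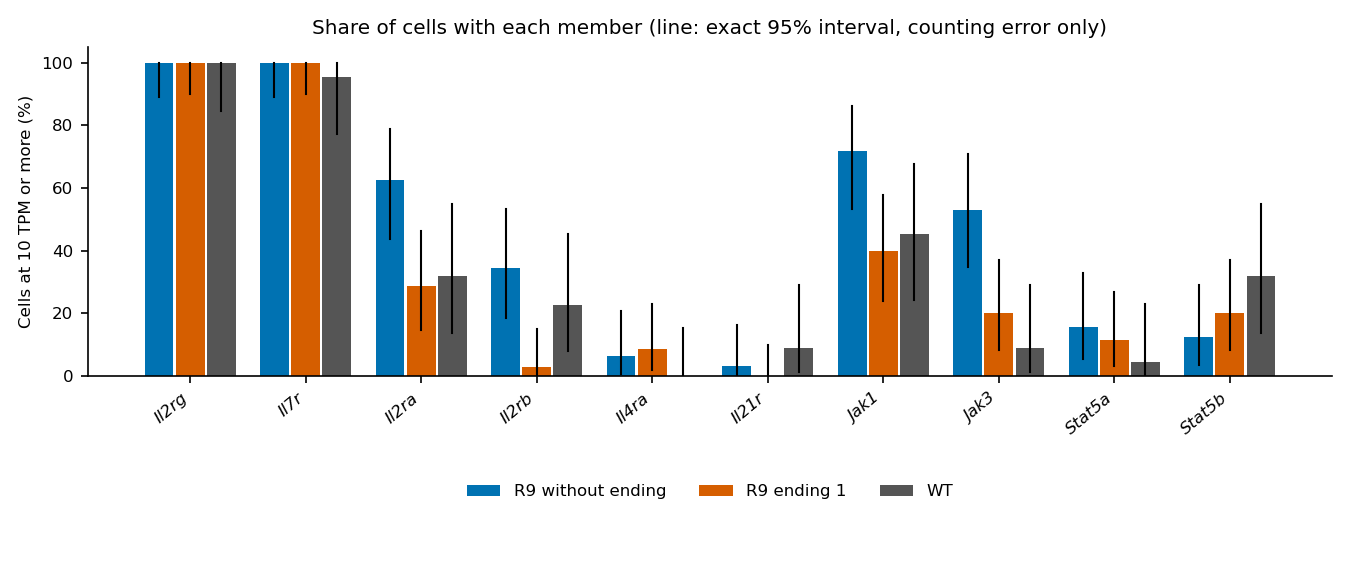
Bars give the percent of cells at 10 TPM or more for each gene in R9 without ending (32 cells), R9 ending 1 (35) and WT (22), and lines give exact 95% intervals. Il2rb stands at 34.4%, 2.86% and 22.7%, and Jak3 at 53.1%, 20% and 9.09%.

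Jak1 (chr4:101152367-101265282, minus strand), the kinase bound to the private chains, was the most widely seen of the kinase and STAT5 genes. R9 cells without ending ran from 0 through a median of 49.7 to 355 TPM, R9 ending 1 from 0 through 1.20 to 803 TPM, and WT from 0 through 5.79 to 347 TPM. At 10 TPM or more it was present in 23 of 32 (71.9%, 53.3 to 86.3), 14 of 35 (40%, 23.9 to 57.9) and 10 of 22 cells (45.5%, 24.4 to 67.8). Those shares had overlapping intervals, and values in the 3 sets overlapped. Mean Jak1 was 86.3 ± 99.4, 136 ± 243 and 59.0 ± 115 TPM. The ratio over WT was 0.54 without ending and 1.19 for ending 1, the latter being 0.07 as a difference of mean log2 values and 0.66 on rescaling without the most abundant genes. Among 8 WT cells present as more than 1 column, Jak1 was at 1 TPM in some columns of a cell and not in others for 4. The same held for 2 of 8 with Il2ra and Stat5b, for 1 of 8 with Il4ra and Jak3, and for 0 of 8 with the other 5 members.

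Jak3 (chr8:71676296-71690575, plus strand), the kinase that binds the common chain, was higher in R9 than in WT. R9 cells without ending ran from 0 through a median of 12.7 to 209 TPM, and R9 ending 1 from 0 through 0.424 to 529 TPM. WT cells had a median of 0, the highest was at 43.7 TPM, and the next was at 13.99 TPM. At 10 TPM or more, Jak3 was present in 17 of 32 (53.1%, 34.7 to 70.9), 7 of 35 (20%, 8.44 to 36.9) and 2 of 22 cells (9.09%, 1.12 to 29.2). The intervals of R9 without ending and WT did not overlap, a difference in that direction seen for 3.5% of the 5776 genes compared, with 0.485% in the other. Of the 8 members that could be compared, 1 was apart, Jak3. No member was apart in R9 ending 1 against WT (0 of 8, beside 0.696% of genes higher and 0.522% lower) or in all R9 cells against WT (0 of 8, beside 0.955% and 0.222%). Mean Jak3 was 31.7 ± 50.1, 53.2 ± 128 and 3.04 ± 9.62 TPM. The ratio over WT was 3.02 without ending and 3.75 for ending 1, and over both together 3.44, between 1.67 and 4.12 over all alternatives that gave a value. WT columns of title ending 1, all listed at 0, gave none. Between the R9 series the ratio was -0.73, which turned to 0.19 after scaling by common genes and to 0.66 on rescaling without the most abundant genes.

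Stat5a and Stat5b, the transducers that the kinases phosphorylate, were each seen in a minority of cells. They lie 8626 bases apart on chromosome 11 (chr11:100859351-100885169, plus strand, and chr11:100780731-100850724, minus strand) with no protein-coding gene between them. Their transcripts share 8.21% of Stat5a's and 10.98% of Stat5b's windows of 50 bases, and Stat5a overlaps Stat3 on the other strand. How reads from these stretches were divided is not given in the sources used here, so the levels of both are uncertain. Stat5a reached 10 TPM in 5 of 32, 4 of 35 and 1 of 22 cells, with highest values of 44.1, 442 and 11.05 TPM. Its ratio over WT was 1.72 without ending and 3.85 for ending 1, where 53.2% of all Stat5a was in 1 cell. Stat5b reached 10 TPM in 4 of 32 (12.5%, 3.51 to 28.99), 7 of 35 (20%, 8.44 to 36.9) and 7 of 22 cells (31.8%, 13.9 to 54.9), with highest values of 71.6, 600.03 and 446 TPM. Its ratio over WT was -2.83 without ending and -0.72 for ending 1, and -1.38 for all R9 cells, which was 1.01 with WT columns of title ending 1 only. Between the R9 series, the ratio was -2.13 for Stat5a and -2.12 for Stat5b, and the former was 0.04 as a difference of mean log2 values.

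Over all 10 members, R9 against WT gave 3 called higher (Il4ra, Jak3 and Stat5a) and 3 called lower (Il2rb, Il21r and Stat5b). Among the 9453 genes that averaged at least 1 TPM in R9 or WT and were listed above 0 in both, 39.5% were called higher and 20.1% lower. The median ratio was 0.64 for the members and 0.52 for all genes, and the members ran from -3.52 to 4.11. R9 without ending against WT gave 3 higher and 3 lower, beside 25.3% and 38.9% of 8009 genes (64.2% either way), with a median of 0.28 for the members and -0.44 for all genes. R9 ending 1 against WT gave 4 higher and 1 lower of 9 members, beside 47.6% and 17.5% of 9170 genes (65.1% either way), with medians of 0.88 and 0.89. Those comparisons share the WT cells. R9 without ending against R9 ending 1 gave 1 higher (Il2rb) and 4 lower (Il7r, Il4ra, Stat5a and Stat5b) of 9 members, beside 14.4% and 62.1% of 8363 genes. The median there was -0.73 for the members and -1.51 for all genes. In these comparisons the share of all genes called either way ran from 59.6% to 76.5%, so a call by itself sets no member apart.

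**Figure D4:**
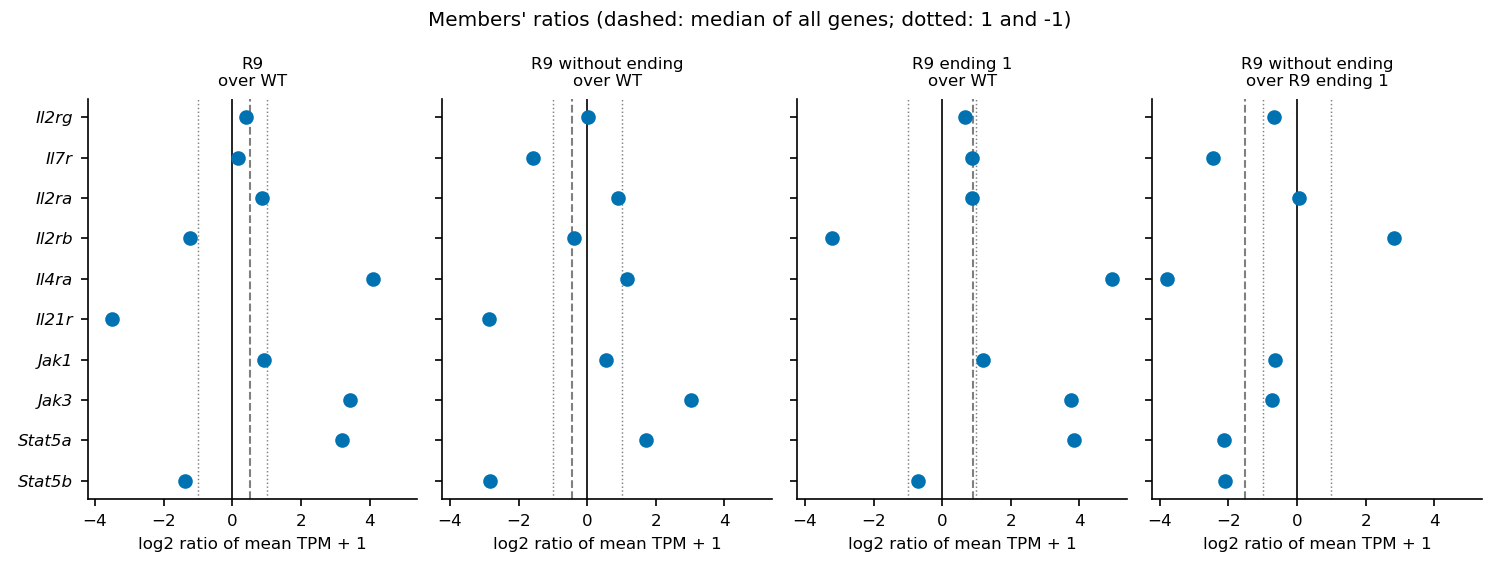
Points are log2 ratios of mean TPM + 1 for each gene in 4 comparisons; the dashed line is the median of all genes compared and dotted lines mark 1 and -1. Il2rg lies between -0.66 and 0.67 in all 4, its sign between the R9 series turning with the scaling, while Il2rb runs from -3.21 in R9 ending 1 over WT to 2.83 between the R9 series; Il21r is left out where a set is listed at 0.

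Whether a cell held all parts of a receptor or of the IL-7 route was read from co-detection. Il7r and Il2rg were both at 1 TPM or more in all 67 R9 and all 22 WT cells, and the product of the former was in the sort gate. Il2rb and Il2rg, the pair that signals for IL-2 and IL-15, were both at 10 TPM or more in 11 of 32, 1 of 35 and 5 of 22 cells. The trimeric IL-2 receptor (Il2ra, Il2rb and Il2rg) was complete at 10 TPM in 8 of 32 (25%, 11.5 to 43.4), 0 of 35 (0 to 10) and 2 of 22 cells (9.09%, 1.12 to 29.2). Il2ra without Il2rb was found at that limit in 12 of 32, 10 of 35 and 5 of 22 cells. Both kinases were at 10 TPM in 11 of 32 (34.4%, 18.6 to 53.2), 4 of 35 (11.4%, 3.20 to 26.7) and 2 of 22 cells (9.09%, 1.12 to 29.2). Neither kinase reached it in 3 of 32 (9.38%, 1.98 to 25.02), 18 of 35 (51.4%, 33.99 to 68.6) and 12 of 22 cells (54.5%, 32.2 to 75.6). The interval of R9 without ending did not overlap those of the other sets here, while the Jak1 intervals overlapped between all sets and the Jak3 intervals between the R9 series. How often other gene pairs show such a gap was not computed. At 1 TPM, neither kinase was found in 2 of 32 (6.25%, 0.766 to 20.8), 13 of 35 (37.1%, 21.5 to 55.1) and 5 of 22 cells (22.7%, 7.82 to 45.4). There the intervals of R9 without ending and WT overlapped. More genes were at 10 TPM in R9 without ending, as given above, and the part of that was not tested. Il7r, Il2rg, both kinases and Stat5a or Stat5b were all at 1 TPM in 4 of 32, 3 of 35 and 0 of 22 cells. At 10 TPM these counts were 4 of 32, 0 of 35 and 0 of 22. A count of 0 among 22 allows a share of up to 13.6% by the limit of 3 counts (15.4% by the exact interval). Cells at this depth of transcript recovery held a median of 5, 4 and 4.5 of the 10 members at 1 TPM.

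For the 3 members seen in at least 50% of the cells of every set, the genes with the most similar pattern were named by the mean of 3 within-set rhos over 856 genes. Il2rg was most like Ly6e (mean rho 0.82), Tmem176a (0.77) and H2-D1 (0.73). The values for Ly6e were 0.95, 0.60 and 0.92 in R9 without ending, R9 ending 1 and WT. Il7r was most like Itm2b (0.67), Btg1 (0.66) and Sec11c (0.62), and Jak1 most like Ifi47 (0.59), Laptm5 (0.50) and Mat2b (0.49). The median mean rho over the genes compared was 0.25, 0.22 and 0.22 for Il2rg, Il7r and Jak1. Il2rg itself was in place 69 for Il7r, with a mean rho of 0.44 (0.79, -0.05 and 0.59 in the 3 sets), and Il7r in place 117 for Il2rg. Jak1 was in place 494 for Il2rg and 408 for Il7r, with mean rhos of 0.22, near the medians of 0.25 and 0.22.

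Several inhibitors and targets of the pathway reached 10 TPM in a larger share of R9 cells without ending than of ending 1. Of 10 inhibitor genes at 10 TPM in at least 10% of either R9 series, 3 had shares above those of ending 1 with intervals apart (Cish, Socs1 and Ptprc) and 0 below, beside the 5.58% and 3.09% of all genes given above. Cish, which STAT5 induces and which binds the activated receptor, reached 10 TPM in 25 of 32 (78.1%, 60.03 to 90.7), 1 of 35 (2.86%, 0.0723 to 14.9) and 10 of 22 WT cells (45.5%, 24.4 to 67.8). At 1 TPM or more it was found in 26 of 32, 19 of 35 and 17 of 22 cells. Mean Cish was 139, 13.2 and 31.7 TPM, with a ratio of 3.31 between the R9 series. Socs1, which blocks JAK catalysis, reached 10 TPM in 31 of 32, 13 of 35 and 12 of 22 cells, and 1 TPM in 31, 30 and 19. At 10 TPM its interval in R9 without ending was above those of both other sets, and its ratio between the R9 series was 0.97. Ptprc, the leukocyte phosphatase CD45 that dephosphorylates JAKs and is itself in the sort gate, reached 10 TPM in 28 of 32, 12 of 35 and 5 of 22 cells. It was at 1 TPM or more in 32, 19 and 15. In mean TPM, 2 inhibitors were called higher and 7 lower of 12, beside 14.4% and 62.1% of all genes, with a median of -1.31 beside -1.51 for all genes, among them Ptpn6, the phosphatase SHP-1, at 57.8 TPM without ending and 858 TPM in ending 1. The gene Ptpn2, whose phosphatase acts on JAK1 and JAK3, had means of 22.7, 167 and 73.0 TPM, with 51.7% of the sum in R9 ending 1 and 52.6% in WT in 1 cell each.

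Of 13 STAT5 and IL-7 targets compared by share, 6 were higher in R9 without ending than in ending 1 with intervals apart (Bcl2, Pim2, Osm, Ccnd2, Ccnd3 and Lta), and 0 were lower, beside 5.58% and 3.09% of all genes. Pim2, a survival kinase, was at 10 TPM in 30 of 32 (93.8%, 79.2 to 99.2), 3 of 35 (8.57%, 1.80 to 23.1) and 8 of 22 cells (36.4%, 17.2 to 59.3). At 1 TPM it was found in 30, 23 and 16. Lta, the cytokine lymphotoxin alpha, reached 10 TPM in 30 of 32 (93.8%), 6 of 35 (17.1%) and 14 of 22 cells (63.6%), and 1 TPM in 30, 26 and 18. Ratios between the R9 series were 2.55 for Pim2 and 2.52 for Lta. The cell cycle gene Ccnd3 and the survival gene Bcl2 had ratios of -0.03 and -0.15. At 10 TPM they were in 27 of 32 against 9 of 35 and 28 of 32 against 15 of 35 cells. A larger share of cells at that limit thus went with similar means. Id2, which ILCs need, was at 10 TPM in all cells, and Gimap5, which supports lymphocyte survival, in 18 of 32, 16 of 35 and 9 of 22. In mean TPM, 4 targets were called higher and 2 lower of 14, beside 14.4% and 62.1% of all genes, with a median of -0.08 beside -1.51. Over WT the calls were 4 higher and 0 lower of 14 without ending (25.3% and 38.9% of all genes) and 6 higher and 2 lower of 15 for ending 1 (47.6% and 17.5%). The median sums of mast cell, macrophage and dendritic cell, and epithelial markers were also higher in R9 without ending than in ending 1. So were the medians of the erythroid sum (169.6 against 94.1 TPM), the share of the highest gene and the number of genes at 10 TPM. The part of these features in the differences above was not tested. After rescaling without the most abundant genes, the ratios of Cish, Pim2 and Lta were 4.57, 3.74 and 3.63.

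**Figure D5:**
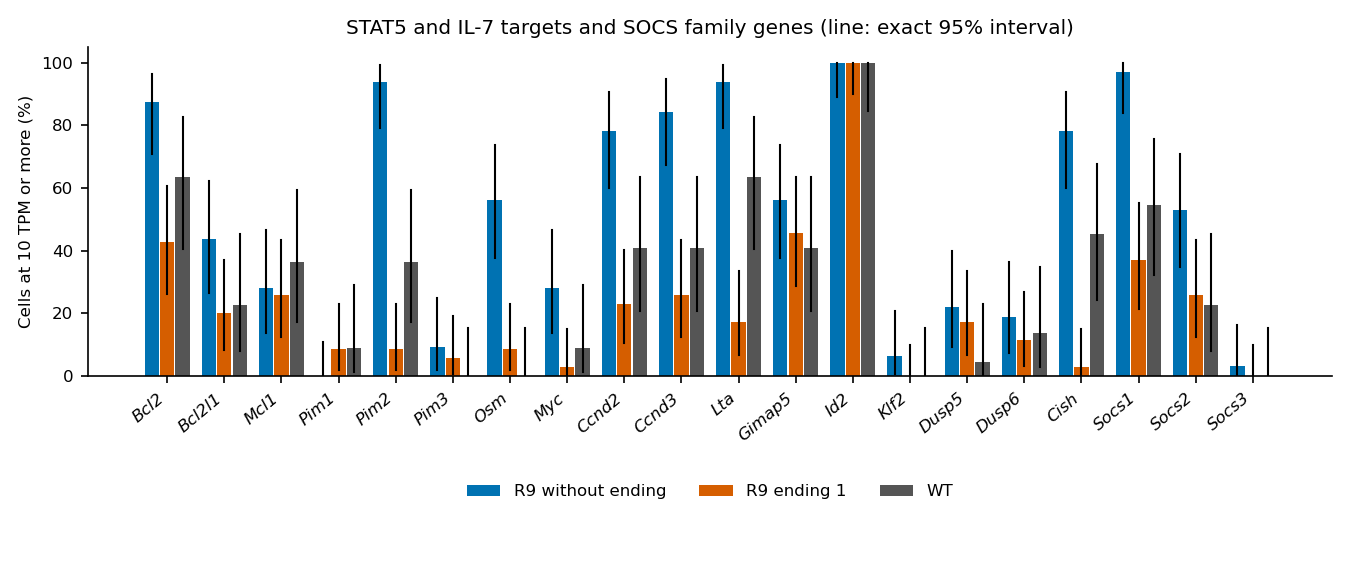
Bars give the percent of cells at 10 TPM or more for 16 STAT5 and IL-7 targets and 4 SOCS family genes in R9 without ending (32 cells), R9 ending 1 (35) and WT (22), with exact 95% intervals as lines. Cish stands at 78.1%, 2.86% and 45.5%, and Pim2 at 93.8%, 8.57% and 36.4%, while Id2 is in all cells.

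Of the other receptors of the family, Il15ra, which presents IL-15, was at 10 TPM in 7 of 32, 0 of 35 and 0 of 22 cells, with 1 cell holding 43.8% of its TPM in R9 without ending. Of 7 ligand genes, 6 were listed at 0 in all cells (Il2, Il4, Il7, Il9, Il21 and Tslp). Il15 had a mean of 286 TPM in WT, of which 98.3% was in 1 cell. Among other JAKs and STATs, Stat3 was at 10 TPM in 16 of 32 (50%, 31.9 to 68.1) and 5 of 35 R9 cells (14.3%, 4.81 to 30.3), and in 3 of 22 WT cells. Stat4, used by the IL-12 receptor, had means of 30.2, 129.5 and 96.3 TPM, with 56.3% of the WT sum in 1 cell. It reached 10 TPM in 8 cells of each set. Jak2 and Stat2 had means of 16.97 and 20.6 TPM in WT and 1.08 and 0.307 TPM in R9, with 54.9% and 86.4% of the WT sum in 1 cell. Of the linked PI3K and MAPK genes, 8 of 14 were called higher and 0 lower in all R9 cells over WT (39.5% and 20.1% of all genes), and 0 higher and 8 lower of 14 in R9 without ending over ending 1 (14.4% and 62.1%). By share, 2 of 11 were higher in R9 without ending than in ending 1 with intervals apart, Lck and Pik3cd. By that measure 0 were lower, and of all genes 5.58% were higher and 3.09% lower. Pik3cd, a catalytic subunit of PI3K, was at 10 TPM in 17 of 32, 6 of 35 and 6 of 22 cells. The lymphocyte kinase Lck was at 10 TPM in 26 of 32 (81.3%, 63.6 to 92.8), 8 of 35 (22.9%, 10.4 to 40.1) and 4 of 22 cells (18.2%, 5.19 to 40.3). Shc1, the adaptor that binds Il2rb, had means of 69.2, 139 and 3.16 TPM, with 74.6% of the sum of R9 without ending in 1 cell. Its ratio over WT was 4.68 for all R9 cells, and in R9 without ending 4.08, or 2.76 without each set's highest cell. The kinase Akt1 had means of 29.1, 101 and 27.3 TPM, and the adaptor Gab3 of 21.6, 98.3 and 18.2 TPM. Over WT, Akt1 had ratios of 0.09 without ending and 1.85 for ending 1, and Gab3 of 0.23 and 2.37. For Gab3, 45.1% of the sum in R9 ending 1 was in 1 cell, and 9 of 32, 6 of 35 and 5 of 22 cells reached 10 TPM. As differences of mean log2 values, the Gab3 ratios over WT were 0.25 and 0.32. For Akt1, 72.7% of the WT sum was in 1 cell. Without each set's highest cell, its ratios over WT were 1.40 without ending and 3.26 for ending 1. For all R9 cells over WT it was 1.26, or 2.72 without each group's highest cell.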

How the data were processed

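Per the labels' protocols, cDNA of sorted single cells was amplified (Discover-sc WTA kit) and made into libraries (TruePrep kit). The authors deposited TPM for 23420 gene symbols in 98 columns, each summing to 1e+06, in separate tables for R9 and WT. The submitters' processing notes name mm10, StringTie 1.3.4, HISAT2 2.1.0, SAMtools 0.1.19 and bcl2fastq, without parameters. TPM holds no counts, so depth is unknown and no count model was used.

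WT columns with a Pearson r above 0.8 (log2(TPM + 1), genes at 1 TPM or more in both) were averaged: 10 pairs with r from 0.844 to 0.995 left 22 cells. In 2 of these pairs the columns carry different cell numbers. No other pair exceeded 0.754. Detection means 1 TPM or more. Ratios are log2 of mean TPM with a pseudocount of 1, which understates differences of low genes, over genes averaging at least 1 TPM in one of the sets. Genes listed at 0 throughout a set got no ratio, a departure from the planned rule. All members were named, up to 5 genes per pathway list with a mean of 10 TPM or more, and the 3 genes most like a member by mean rho. Some pathway genes that this rule names are not reported here. Pathway genes outside that rule (Bcl2, Osm, Ccnd2 and Il2, for example) were named for their counts after their values were seen, and so were the limits of 10 TPM for interval comparisons, 2 TPM and 100 TPM. The members and lists were chosen with earlier results of these data known. Of the other marker lists, those for T cells, B cells, neutrophils, endothelium and stroma had a median summed TPM of 0 to 3.55 in each set, although single cells reached up to 6165 TPM (T cell markers, R9 ending 1). Erythroid markers had medians of 169.6, 94.1 and 9.75 TPM and reached 194563 TPM in R9 ending 1. Coordinates are from GENCODE M21 (GRCm38, the build mm10) by symbol. Alternatives changed the pseudocount, the mean, the scaling, the filters, the detection limit and the WT columns. Ratios were tested on simulated data. Software was scipy 1.17.1, pandas 2.3.3, numpy 2.4.6 and matplotlib 3.10.9 under Python 3.11.15.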

Additional observations from a re-analysis of the deposited data

Results flagged for a closer look

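Il7r stood on opposite sides of WT in the R9 series: its log2 ratio over WT was -1.57 in the 32 cells without ending and 0.88 in the 35 cells of ending 1. The median of all genes also had opposite signs in these comparisons, at -0.44 and 0.89. Il7r was singled out for its opposite signs, and the difference was not tested, since each set is 1 sample. The signs were opposite as well with WT columns of title ending 1 only (-2.05 and 0.40) and of title ending 2 only (-1.27 and 1.18). After scaling by common genes both were below 0 (-2.32 and -0.42).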

How the results depend on the processing

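Of 22 member ratios called in the 4 comparisons, 19 kept their sign in every alternative that gave a value. Of the 278 alternative values, 31 kept the sign but were under 1 in size, so the call was lost. The cause of the changes below was not tested. Stat5b over WT for all R9 cells was 1.01 with WT columns of title ending 1 only. Il4ra in R9 without ending over WT was -0.17 after scaling by common genes. Stat5a between the R9 series was 0.039 as a difference of mean log2(TPM + 1). For all R9 cells over WT, the count of members called higher was 3, and 5 without each gene's highest cell. The count called lower was 3, and it was 0 as a difference of mean log2 values and 1 with WT columns of title ending 1 only. Between the R9 series, 1 member was called higher, and this was 4 as a difference of mean log2 values and 2 on rescaling without genes at 1% or more of a cell's TPM. The 4 called lower became 1 as a difference of mean log2 values. The median of all genes moved with the scaling, from 0.52 to 0.13 after scaling by common genes for R9 over WT and from -1.51 to -0.31 on rescaling without the most abundant genes between the R9 series. Keeping genes listed at 0 throughout a set, an alternative added after seeing the data, moved these medians to 0.62 and -1.61. The column without a title ending in the WT table entered neither title set of WT. No paired analysis was possible because no animal or batch is given for any cell and no test was run. Unknown depth limits every statement on rare members, and in some WT cells a member was detected in 1 column and not in another.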

Other observations

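WT columns fall into title endings 1 and 2, whose meaning the labels do not give, and no comparison was made between them. In the 9 columns of ending 1, Il21r, Jak3 and Stat5a were listed at 0 throughout, and Il2rg had a median of 67.4 TPM (4.21 to 4062). In the 21 columns of ending 2, Jak3 was at 1 TPM or more in 5, Stat5a in 2 and Il21r in 2, and Il2rg had a median of 714 TPM (16.04 to 4211). Il7r had a median of 188 TPM in the former and 309.6 TPM in the latter.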
